A study of Saccharomyces cerevisiae with 8 samples.

Results

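Putting RPL12A back on a high copy plasmid was set against carrying no RPL12 gene at all, in the yeast Saccharomyces cerevisiae. The comparison was fixed by the sample titles and not by any measured value, and it takes 4 of the 8 arrays of the study. The plus RPL12A group is 2 cultures of strain 6EA1, which lacks both RPL12A (YEL054C) and RPL12B (YDR418W), transformed with a high copy RPL12A plasmid. The double deletion group is 2 cultures of 6EA1 itself. Another pair of groups, of 2 arrays each, gives side values: plus RPL12B, which is 6EA1 with a high copy RPL12B plasmid, and wild type W303, the laboratory strain in whose background 6EA1 was made. All groups were harvested in early log phase, at an A600 of 0.5 to 0.6, at 30 °C in defined medium with 2% glucose and 40 mg per litre of each required supplement. The labels give neither the promoter and selection marker of the plasmid nor whether 6EA1 carried an empty plasmid, so the gene and the plasmid that carries it cannot be told apart.

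Rpl12 is a protein of the large ribosomal subunit and is encoded by a pair of genes that specify the same polypeptide. It sits at the base of the ribosomal stalk beside Rpp0 and near the sarcin-ricin loop, where the elongation factors dock. Yeast cells without it are viable but grow slowly. Growing cells spend much of their transcription on ribosomal proteins and on the factors that assemble ribosomes, and they adjust transporters and biosynthetic enzymes to phosphate, sulfate, vitamins and amino acids.

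Signals are the deposited array intensities, and 5439 genes were tested. Differences are log2 of plus RPL12A over double deletion unless another pair is named, each from limma over all 8 arrays with its SE. A gene was called when its adjusted p (limma, Benjamini-Hochberg over all genes tested) was under 0.05. The lower limit of signal on an array, set by probe sets of another yeast species, was 7.42 to 8.72. The number of arrays limits the precision, and an exact 2-sided test of 2 arrays against 2 cannot go below p = 0.333. Both arrays of a group correlated across genes, which are not independent replicates, at r = 0.972 with plus RPL12A and at r = 0.985 in the double deletion. The 3′ probe set for 25S ribosomal RNA had a signal of 5720 and 277 on plus RPL12A replicates 1 and 2, and of 4319 and 3947 on double deletion replicates 1 and 2. Plus RPL12A replicate 2 therefore stands apart in this control, as do plus RPL12B replicate 2 and wild type replicate 2, and the counts of called genes are also given without those 3 arrays. Each difference from the double deletion has the same value without those 3 arrays as without plus RPL12A replicate 2 alone. Genes that mark mating type a were above background on every one of the 4 arrays, 7 of 7, with a summed signal of 6149 and 7569 with plus RPL12A and of 7232 and 7310 in the double deletion. The 4 genes that mark mating type alpha were also above background on each of the 4 arrays, 4 of 4, and had summed signals of 414.5 and 326.2 with plus RPL12A and of 478.2 and 401.8 in the double deletion.

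The plasmid gene was present on both arrays and its paralog was not restored. RPL12A had a signal of 6079 and 5732 with plus RPL12A, against 28.8 and 6.88 in the double deletion. It stood at 5321 and 5269 in the wild type. The plus RPL12A arrays lay far above both double deletion arrays and close to the wild type, with a log2 difference from the wild type of 0.16 (adjusted p = 0.895). Against the double deletion RPL12A rose by 8.71 ± 0.61 on the log2 scale (SE, adjusted p = 0.00263). The signal of double deletion replicate 2 was under background, so this size is uncertain, and with signals under background set to it the rise was 8.62. RPL12B had a signal of 48.5 and 20.1 with plus RPL12A, of 17.3 and 1.71 in the double deletion, and of 6537 and 7040 in the wild type. Its log2 difference from the double deletion was 2.52 ± 0.95 (adjusted p = 0.288). Double deletion replicate 2 was under background here too, and with signals under background set to it the difference was 1.43. From the wild type RPL12B fell by 7.76 (adjusted p = 0.0159). The high copy plasmid thus came with an RPL12A signal near that of the single chromosomal copy in the wild type. The highest signals of any probe set on the plus RPL12A arrays were 8073 and 8236. Whether signals this high still follow the amount of transcript was not tested, so equal amounts are not shown.

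With RPL12A itself, 12 of 5439 genes rose (0.221%) and 0 fell (0%). The other 11 are genes for phosphate and sulfate uptake, vitamin B6, amino acid synthesis, methionine salvage and drug export, and 1 ribosomal protein gene. At an unadjusted p under 0.05, limma gave 386 genes higher (7.10%) and 466 lower (8.57%). The count of rises was 5 without wild type replicate 1, without wild type replicate 2 or without plus RPL12A replicate 1, and 4 without plus RPL12A replicate 2 or without double deletion replicate 1. It was 5 without the 3 arrays of low 25S signal, where RPL12A, PHO84, SUL1, QDR2 and SNZ1 were called. RPL12A, SUL1, QDR2 and SNZ1 were called with each of the 8 arrays left out in turn. Of the 19 genes named as called against the wild type, 3 (NCA3, LEU2 and URA3) were also called there with each array left out in turn. Of those 19, 6 were called without the 3 arrays of low 25S signal and 10 with quantile normalization. In RNA from whole cultures, fewer cells with a transcript and less transcript per cell cannot be told apart.

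**Figure D1:**
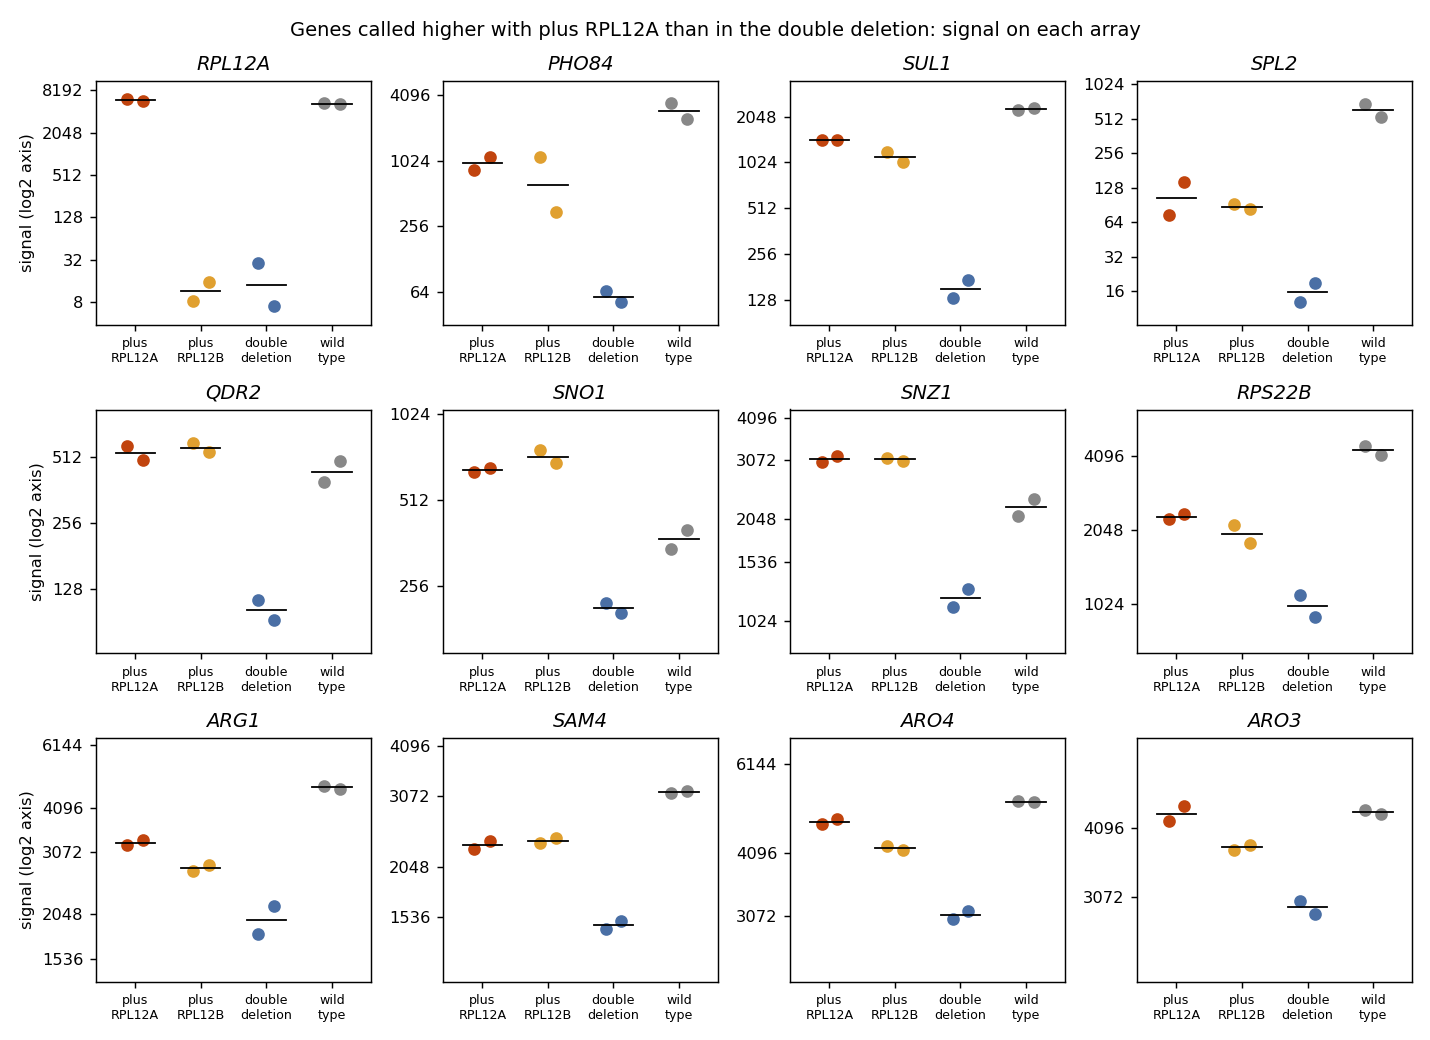
Signal on each array (vertical log2 axes, deposited intensity) of the 12 genes that rose with plus RPL12A. Each point is 1 array and each bar the group mean of log2 signal; for all 12 genes both plus RPL12A arrays lie above both double deletion arrays.

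Phosphate uptake held the largest rise after RPL12A. PHO84, the high affinity phosphate transporter, had a signal of 842 and 1119 with plus RPL12A, against 65.7 and 51.3 in the double deletion, and of 3438 and 2494 in the wild type. Both plus RPL12A arrays were far above the double deletion and below the wild type. PHO84 rose by 4.07 ± 0.49 (SE, log2, adjusted p = 0.0322), a 16.7-fold difference. Its difference from the wild type, -1.59, did not pass the test (adjusted p = 0.106). SPL2, a small protein that lowers low affinity phosphate uptake when phosphate is short, had a signal of 74.3 and 143 with plus RPL12A, against 12.9 and 19.0 in the double deletion. The wild type had 688 and 533, so the plus RPL12A arrays lay between the groups and overlapped neither. SPL2 rose by 2.72 ± 0.35 (adjusted p = 0.0424) and differed from the wild type by -2.56 (adjusted p = 0.0209). With each array left out in turn, the adjusted p of SPL2 reached 0.412 (without double deletion replicate 1) and that of PHO84 reached 0.253 (without plus RPL12A replicate 2).

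The rest of the phosphate system did not pass the test. Of 9 genes listed as phosphate transporters with SPL2, 2 were called, PHO84 and SPL2. PHO89, a sodium-coupled phosphate transporter, differed by 0.22 ± 0.33 and PHO90, a low affinity transporter, by 0.25 ± 0.17. The secreted acid phosphatases are standard targets of the same transcription factor, Pho4. PHO5 had a signal of 422 and 411 with plus RPL12A, against 442 and 303 in the double deletion and 975 and 972 in the wild type. PHO11 had a signal of 336 and 388 with plus RPL12A, against 374 and 259 in the double deletion and 1648 and 1332 in the wild type. For both phosphatases the plus RPL12A arrays overlapped those of the double deletion and lay below the wild type. Their log2 differences from the wild type were -1.23 for PHO5 (adjusted p = 0.0451) and -2.04 for PHO11 (adjusted p = 0.0286). Of 13 polyphosphate genes and other PHO targets limma called 0. Both plus RPL12A arrays lay above both double deletion arrays for 6 of them (46.2%, against 17.0% over all genes). Both lay below for 1 (7.69%, against 34.5%). VTC2, of polyphosphate synthesis, differed by 0.45 ± 0.17 (adjusted p = 0.285). Among 10 phosphate signalling genes limma called 0, with 3 lower and 0 higher at an unadjusted p under 0.05. Their median was -0.22, against -0.17 for genes of like signal. Both plus RPL12A arrays lay below both double deletion arrays for 4 (40%). PHO80, the cyclin that restrains Pho4, had a signal of 582 and 522 with plus RPL12A and of 811 and 711 in the double deletion, a difference of -0.46 ± 0.12 (adjusted p = 0.238). PHO81, whose product inhibits Pho80 and its kinase, differed by -0.47 ± 0.19 (adjusted p = 0.31). ARG82 differed by -0.61 ± 0.19 (adjusted p = 0.25).

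Sulfate uptake showed the same contrast between 1 transporter gene and its pathway. SUL1, a high affinity sulfate permease, had a signal of 1434 and 1448 with plus RPL12A, against 132 and 174 in the double deletion and 2250 and 2336 in the wild type. The plus RPL12A arrays nearly coincided and lay well above the double deletion. SUL1 rose by 3.25 ± 0.15 (SE, log2, adjusted p = 0.000482), or 9.52-fold, with a difference from the wild type of -0.67 (adjusted p = 0.0599). It was the only 1 of 17 genes of sulfate uptake and assimilation that was called. The median of these genes was -0.13, against -0.02 for genes of like signal and -0.09 over all genes tested. It was -0.19 after quantile normalization, 0.02 on plus RPL12A replicate 1 and -0.24 on replicate 2. MET32, a zinc finger factor of the sulfur network, had a signal of 304 and 211 with plus RPL12A and of 523 and 359 in the double deletion, a difference of -0.78 ± 0.28 (adjusted p = 0.278). In the methionine cycle SAM4, which uses S-adenosylmethionine to make methionine from homocysteine, had a signal of 2272 and 2381 with plus RPL12A. The double deletion had 1435 and 1500 and the wild type 3122 and 3166, so the 3 groups did not overlap. SAM4 rose by 0.67 ± 0.07 (adjusted p = 0.0214), the only call among 25 genes of the cycle, and differed from the wild type by -0.43 (adjusted p = 0.0312). MMP1, the high affinity S-methylmethionine permease, had a signal of 1725 and 1096 with plus RPL12A and of 2378 and 2010 in the double deletion, a difference of -0.67 ± 0.31 (adjusted p = 0.335).

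The vitamin B6 pair SNZ1 and SNO1 rose. These neighbouring genes are transcribed away from a shared promoter region, and their products form the enzyme complex that makes pyridoxal phosphate. SNO1 had a signal of 643 and 661 with plus RPL12A, against 223 and 207 in the double deletion and 346 and 401 in the wild type. SNZ1 had a signal of 3023 and 3167 with plus RPL12A, against 1126 and 1274 in the double deletion and 2099 and 2357 in the wild type. For both genes the plus RPL12A arrays were the highest of the 3 groups. SNO1 rose by 1.60 ± 0.14 (SE, log2, adjusted p = 0.00589) and SNZ1 by 1.37 ± 0.10 (adjusted p = 0.00263). They differed from the wild type by 0.81 for SNO1 (adjusted p = 0.0312) and by 0.48 for SNZ1 (adjusted p = 0.0451). Both of these calls against the wild type were lost when any 1 array of plus RPL12A, the double deletion or the wild type was left out, with an adjusted p of up to 0.199 for SNO1 and 0.224 for SNZ1, and with quantile normalization, at 0.0595 and 0.0540. Of 8 vitamin B6 genes tested these 2 were called. PDX3, the pyridoxine phosphate oxidase, had a signal of 2249 and 1990 with plus RPL12A and of 1620 and 1503 in the double deletion, a difference of 0.44 ± 0.10 (adjusted p = 0.227). The second pair of the family gave 0.46 ± 0.24 for SNZ3 and -0.27 ± 0.19 for SNO3, and neither passed the test.

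Drug export was represented by QDR2, a plasma membrane antiporter of the major facilitator family that exports drugs. It had a signal of 575 and 500 with plus RPL12A, against 113 and 92.3 in the double deletion and 396 and 491 in the wild type. Both plus RPL12A arrays exceeded both wild type arrays, but the difference of 0.28 did not pass the test (adjusted p = 0.353). Against the double deletion QDR2 rose by 2.39 ± 0.18 (SE, log2, adjusted p = 0.00285), or 5.24-fold. It was the only call among 24 multidrug and polyamine transporter genes, whose median was -0.24, and -0.08 without plus RPL12A replicate 2 and -0.09 without double deletion replicate 1. Its relative QDR3, which exports polyamines, had a signal of 1092 and 1210 with plus RPL12A and of 652 and 725 in the double deletion. QDR3 differed by 0.74 ± 0.13 (adjusted p = 0.155), and its arrays did not overlap.

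In amino acid synthesis 3 enzymes rose, each by less than 2-fold. ARO3 and ARO4 encode the isoenzymes of the first step toward phenylalanine, tyrosine and tryptophan, and ARG1 encodes argininosuccinate synthetase. ARO4 had a signal of 4676 and 4779 with plus RPL12A, against 3037 and 3147 in the double deletion and 5194 and 5167 in the wild type. ARO3 had a signal of 4216 and 4487 with plus RPL12A, against 3016 and 2866 in the double deletion and 4413 and 4337 in the wild type. ARG1 had a signal of 3209 and 3311 with plus RPL12A, against 1802 and 2160 in the double deletion and 4717 and 4628 in the wild type. The plus RPL12A arrays of ARO3 bracketed the wild type, those of ARO4 lay just below it, and those of ARG1 lay between the other groups. ARO4 rose by 0.61 ± 0.05 (SE, log2, adjusted p = 0.00707), ARO3 by 0.57 ± 0.06 (adjusted p = 0.0214) and ARG1 by 0.72 ± 0.09 (adjusted p = 0.0424). From the wild type ARG1 differed by -0.52 (adjusted p = 0.0367), ARO4 by -0.13 (adjusted p = 0.185) and ARO3 by -0.01 (adjusted p = 0.947). With each array left out in turn, the adjusted p reached 0.432 for ARG1, 0.253 for ARO3 and 0.134 for ARO4, each without plus RPL12A replicate 2. With hybridisation control centring it was 0.0705 for ARG1, 0.232 for ARO3 and 0.107 for ARO4.

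RPS22B, a gene for a protein of the small ribosomal subunit, was the only ribosomal protein gene called besides RPL12A. Its signal was 2264 and 2387 with plus RPL12A, against 1112 and 911 in the double deletion and 4501 and 4146 in the wild type. The 3 groups were clearly apart. RPS22B rose by 1.21 ± 0.13 (SE, log2, adjusted p = 0.0193) and differed from the wild type by -0.89 (adjusted p = 0.0214). Its adjusted p reached 0.204 with arrays left out in turn (without plus RPL12A replicate 2), and it was 0.0571 with hybridisation control centring.

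The cells given the other paralog carry the same deletion and are compared with the same double deletion arrays, so both comparisons share them. Plus RPL12B had a signal of 1103 and 347 for PHO84, of 1202 and 1029 for SUL1, of 596 and 542 for QDR2 and of 3120 and 3060 for SNZ1. It had 2153 and 1809 for RPS22B, 2706 and 2813 for ARG1, 4236 and 4162 for ARO4 and 3742 and 3812 for ARO3. PHO84 on plus RPL12B replicate 2 lay below both plus RPL12A arrays, and for SUL1, RPS22B, ARG1, ARO4 and ARO3 both plus RPL12B arrays lay between plus RPL12A and the double deletion. Between plus RPL12A and plus RPL12B, RPL12A was the only gene called (0.0184%). RPL12B, which differs by design as well, was not called, so the lack of calls does not show that the other genes were alike.

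Below the threshold, the direction of small differences ran with the strength of the signal from the second decile upward. The genes were divided into deciles by their mean log2 signal over the 8 arrays. In the first decile, around a signal of 63.1, the median difference was -0.15, with 13.1% of genes higher and 28.3% lower on both arrays. In the second decile, around a signal of 215.7, the median difference was -0.27, and both plus RPL12A arrays lay below both double deletion arrays for 51.1% of genes. In the top decile, around a signal of 4055, the median was 0.17 and both plus RPL12A arrays lay above both double deletion arrays for 73.2% of genes. Between these the medians of the deciles ran upward step by step, at -0.23, -0.21, -0.17, -0.12, -0.07, -0.02 and 0.05. The top decile holds 122 ribosomal protein genes, and the median of its other 422 genes was also 0.17. With quantile normalization, which gives every array the same distribution of signals, the medians of all deciles lay between -0.03 and 0.01. Over all genes tested the median was -0.09 as deposited, 0.03 with arrays centred on their median gene signal, -0.01 after quantile normalization and -0.24 after hybridisation control centring. Whether the trend lies in the cells or in the scaling of the arrays was not tested.

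**Figure D2:**
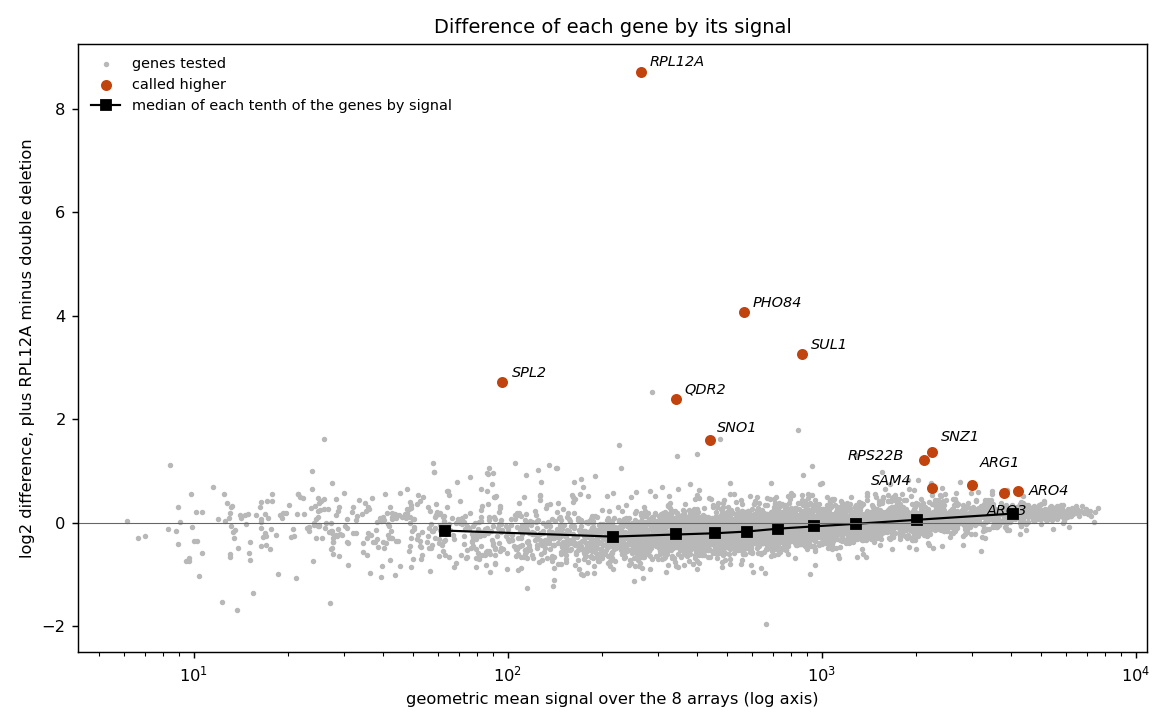
Log2 difference of plus RPL12A minus double deletion (vertical axis) against the geometric mean signal over the 8 arrays (horizontal log axis), with 1 point per gene tested. Filled red points are the 12 genes called higher, and squares joined by a line are the medians of the deciles of genes by signal, which lie at -0.15 in the first decile and run upward from -0.27 in the second to 0.17 in the top one.

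Beside many of the gene lists below stand counts of members with no overlap between the 4 arrays. The same counts over all genes were 923 higher (17.0%) and 1877 lower (34.5%). Many lists also have beside them the median their members would have if each took the median of its decile of signal. No test of a list was made. Medians are log2 differences of plus RPL12A minus double deletion.

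**Figure D3:**
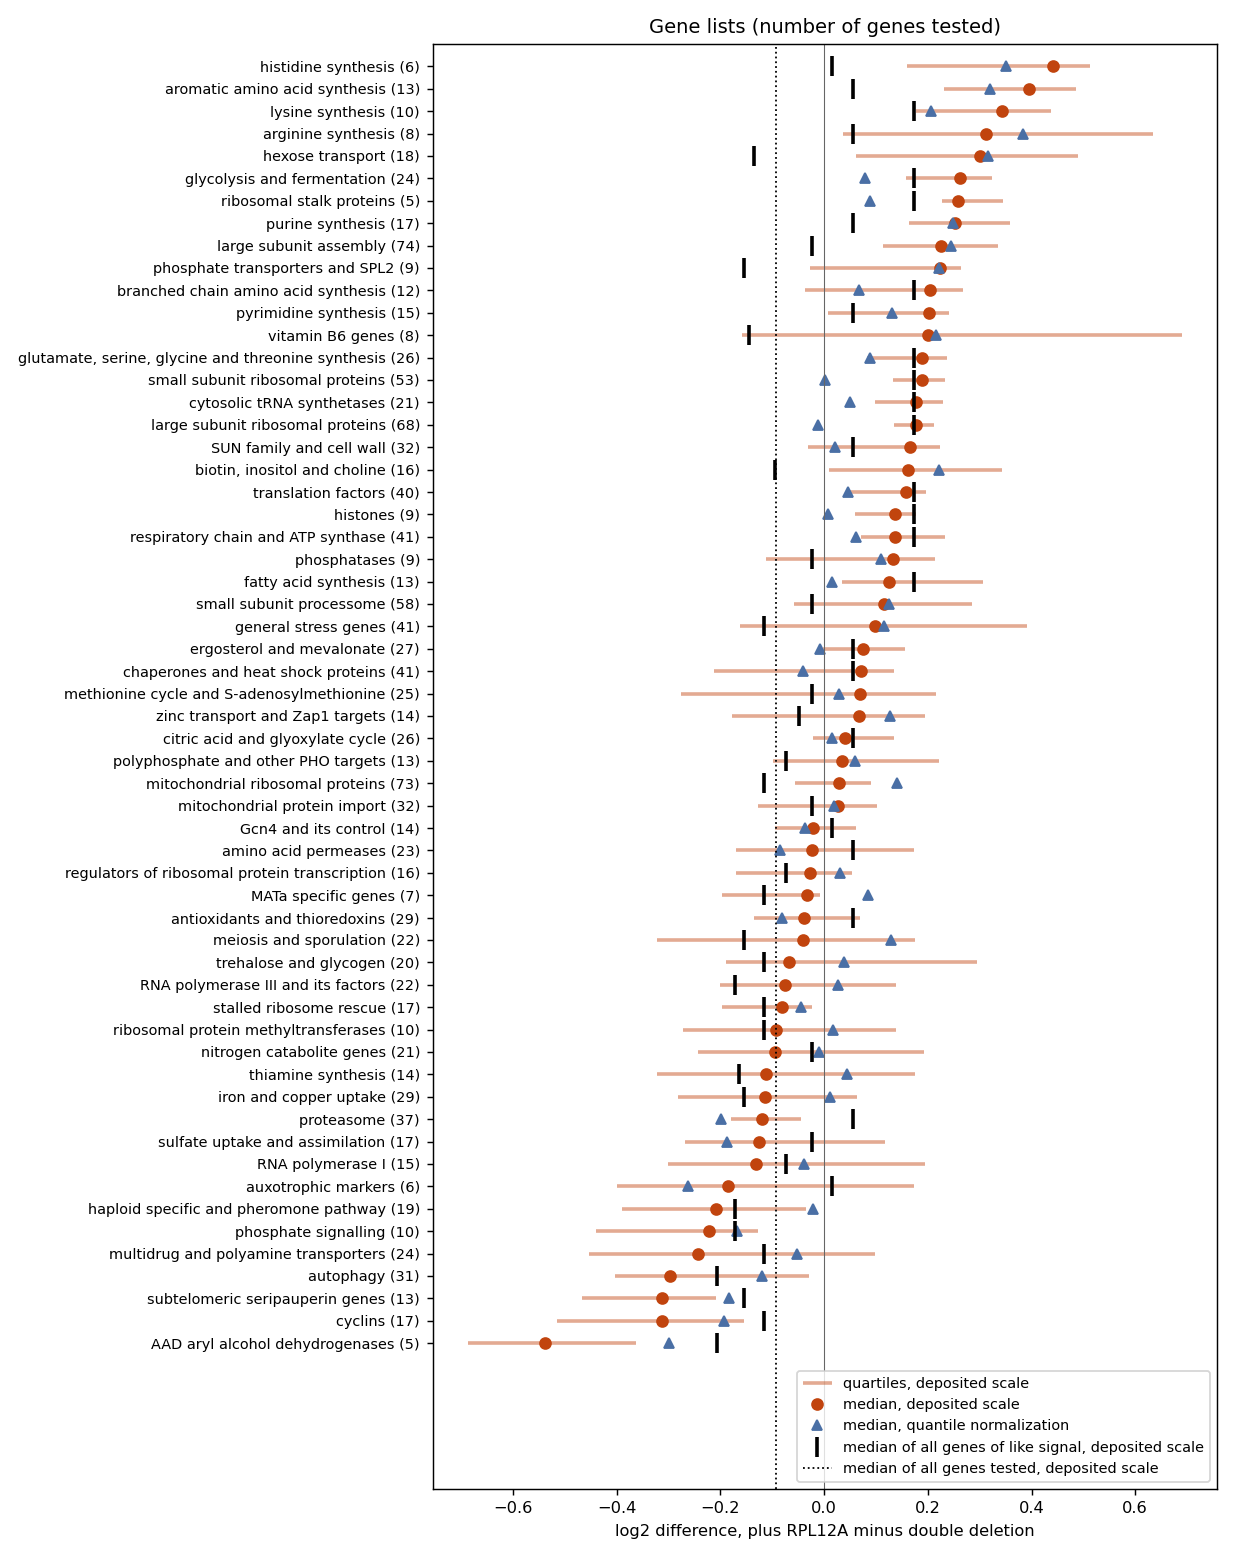
Median (circle) and quartiles (bar) of the log2 difference of plus RPL12A minus double deletion in each gene list of at least 5 tested genes, with the number of genes in brackets. Black ticks give the median over members of the value for their decile of signal and triangles the list median after quantile normalization. The histidine synthesis list, which leaves out HIS3, lies highest, at 0.44, and the AAD genes lowest, at -0.54.

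Ribosomal protein genes were on average a little higher, by as much as other genes of their signal. Of 68 genes for the large subunit, 60 had both plus RPL12A arrays above the double deletion and 3 had both below. None was called by limma, which gave 38 higher and 1 lower at an unadjusted p under 0.05. Their median was 0.18, against 0.17 for their deciles of signal, and it was -0.01 after quantile normalization and 0.10 without double deletion replicate 1. For 53 genes of the small subunit the counts were 43 and 2, the median was 0.19 against 0.17, and it was 0.00 after quantile normalization. Among the stalk proteins, RPP0, the stalk base that adjoins Rpl12, had a signal of 5202 and 5536 with plus RPL12A and of 4122 and 4336 in the double deletion. It differed by 0.34 ± 0.07 (SE, adjusted p = 0.197). The acidic stalk proteins differed by 0.36 for RPP2A, 0.26 for RPP2B, 0.23 for RPP1A and 0.22 for RPP1B. All 5 stalk genes had both plus RPL12A arrays above the double deletion, with a median of 0.26 against 0.17 for their deciles, and none was called, although limma gave all 5 an unadjusted p under 0.05. RPL9B, for a protein of the large subunit, had a signal of 3108 and 2542 with plus RPL12A, of 2265 and 2069 in the double deletion and of 4407 and 4262 in the wild type. Its difference of 0.38 from the double deletion did not pass the test (adjusted p = 0.245), and it lay below the wild type by -0.62 (adjusted p = 0.0367). RKM2 and RMT2, which methylate Rpl12, differed by -0.22 ± 0.16 and 0.20 ± 0.20, with overlapping arrays.

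Ribosome assembly genes had medians above those of their signal deciles, and the medians moved with the double deletion array that was left out. Of 74 genes of large subunit assembly, 31 had both plus RPL12A arrays above the double deletion and 3 had both below, with a median of 0.23 against -0.02 for their deciles. That median was 0.24 after quantile normalization and 0.08 after hybridisation control centring. Leaving out replicate 1 of the double deletion gave 0.03, and leaving out its replicate 2 gave 0.42. NOP7, a component of an early assembly complex, had a signal of 1400 and 1461 with plus RPL12A and of 908 and 1232 in the double deletion. DBP2, an RNA helicase, had a signal of 3191 and 3401 with plus RPL12A and of 1735 and 2812 in the double deletion. Neither passed the test, at 0.44 ± 0.15 for NOP7 and 0.58 ± 0.20 for DBP2. Of 58 genes of the small subunit processome, which cuts and folds the early ribosomal RNA precursor, 20 were higher and 0 lower by array. Their median was 0.12 against -0.02, and -0.03 after hybridisation control centring. Leaving out replicate 1 of plus RPL12A gave 0.08 for the processome and leaving out its replicate 2 gave 0.21. Leaving out replicate 1 of the double deletion turned that median to -0.03, and leaving out its replicate 2 gave 0.30. KRE33, an RNA acetyltransferase, differed by 0.56 ± 0.16, UTP20 by 0.54 ± 0.13 and the GTPase BMS1 by 0.49 ± 0.14, with adjusted p of 0.243, 0.229 and 0.244 in that order. The 15 genes of RNA polymerase I had a median of -0.13 against -0.07 for their deciles. By array 6 were higher (40%) and 4 lower (26.7%). All 6 encode subunits of the enzyme and all 4 encode initiation factors, so the list median mixes opposite directions. That median was 0.15 on plus RPL12A replicate 1 and -0.40 on replicate 2, against the mean of the double deletion. It was -0.04 without double deletion replicate 2.

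Translation factors and tRNA synthetases followed their signal. The 40 translation factor genes had a median of 0.16 and the 21 cytosolic tRNA synthetase genes one of 0.18, both against 0.17 for their deciles, and the first was 0.10 without double deletion replicate 1. TEF2, a gene for elongation factor 1 alpha, had a signal of 5773 and 6488 with plus RPL12A and of 4609 and 5218 in the double deletion. KRS1, the lysyl-tRNA synthetase, had a signal of 4795 and 4861 with plus RPL12A and of 3781 and 4024 in the double deletion. GRS1, the glycyl-tRNA synthetase, had a signal of 4558 and 5107 with plus RPL12A and of 3758 and 3680 in the double deletion. In each the arrays did not overlap, and the differences were 0.32 for TEF2, 0.31 for KRS1 and 0.38 for GRS1, none past the test. Mitochondrial ribosomal proteins differed little: 17 of 73 were higher and 11 lower by array, with a median of 0.03 against -0.12 for their deciles, -0.02 with double deletion replicate 1 left out and 0.08 with its replicate 2 left out. The same 73 genes had a median of -0.42 for plus RPL12A minus wild type and of -0.44 for double deletion minus wild type, 2 comparisons that share the wild type arrays. MRPS9, a protein of the small mitochondrial subunit, had the largest difference among those that did not overlap, 0.37 ± 0.09 (adjusted p = 0.238).

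Amino acid synthesis held 3 of the called genes, and several other members lay on the same side. On the deposited scale the histidine synthesis list had the highest median of all lists, 0.44 over 6 genes against 0.02 for their deciles. By array 5 were higher and 0 lower. HIS3, also of this pathway, is listed with the marker genes instead and was lower by array, at -0.61 ± 0.25. The rank and the counts are therefore those of the list without HIS3. HIS4 had a signal of 4518 and 5536 with plus RPL12A and of 3052 and 3846 in the double deletion. HIS1, which catalyses the first step, had a signal of 4513 and 4928 with plus RPL12A and of 2956 and 3660 in the double deletion. HIS7 had 1449 and 1481 with plus RPL12A and 900 and 1201 in the double deletion. The groups did not overlap for any of the 3 genes, whose differences were 0.55 for HIS4, 0.52 for HIS1 and 0.50 for HIS7, and none passed the test.

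Of 13 genes of aromatic amino acid synthesis 2 were called, 10 were higher by array and 1 lower, with a median of 0.40 against 0.05 for their deciles. ARO2, chorismate synthase, had a signal of 2452 and 2722 with plus RPL12A and of 1671 and 1852 in the double deletion, a difference of 0.55 ± 0.09 (adjusted p = 0.103). TRP4, of the tryptophan branch, differed by 0.49 ± 0.10 and the transaminase ARO8 by 0.43 ± 0.07, with adjusted p of 0.197 and 0.125 in that order. Of 8 arginine genes 1 was called and 4 were higher by array, with a median of 0.31 against 0.05, and of 0.19 without double deletion replicate 1. ARG7 had a signal of 2470 and 2680 with plus RPL12A and of 1520 and 1698 in the double deletion, and at 0.68 ± 0.10 it came close to the threshold (adjusted p = 0.0837). ARG4, argininosuccinate lyase, differed by 0.62 ± 0.17 and ORT1, the mitochondrial ornithine transporter, by 0.55 ± 0.15.

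Lysine synthesis had a median of 0.34 over 10 genes against 0.17 for their deciles, and of 0.23 without double deletion replicate 1, with 8 higher and 2 lower by array. Limma called 0 of them, with 6 higher and 1 lower at an unadjusted p under 0.05. LYS20, homocitrate synthase, had a signal of 3732 and 3614 with plus RPL12A and of 2075 and 2802 in the double deletion, a difference of 0.61 ± 0.13 (adjusted p = 0.198). LYS2, the aminoadipate reductase, differed by 0.53 ± 0.11. LYS5, whose product activates Lys2, lay on the other side, with a signal of 532 and 577 with plus RPL12A and of 749 and 708 in the double deletion, a difference of -0.39 ± 0.12. Branched chain synthesis had a median of 0.20 against 0.17, and of 0.11 without double deletion replicate 1, with ILV6 at 0.43 ± 0.14. LEU2, also of this pathway, is listed with the marker genes instead and was lower by array, at -0.30 ± 0.18. The 26 genes for glutamate, serine, glycine and threonine had a median of 0.19 against 0.17, with SER3 at 0.65 ± 0.15 and HOM2 at 0.38 ± 0.08. The 23 amino acid permeases had a median of -0.02, with 0.06 on plus RPL12A replicate 1 and -0.09 on replicate 2, and with 3 higher and 3 lower by array. AGP1, a broad permease, was at 0.28 ± 0.09. PCL5, the cyclin that promotes turnover of the transcription factor Gcn4 and is itself a Gcn4 target, had a signal of 1826 and 2594 with plus RPL12A and of 995 and 1503 in the double deletion, a difference of 0.83 ± 0.31 (adjusted p = 0.288).

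**Figure D4:**
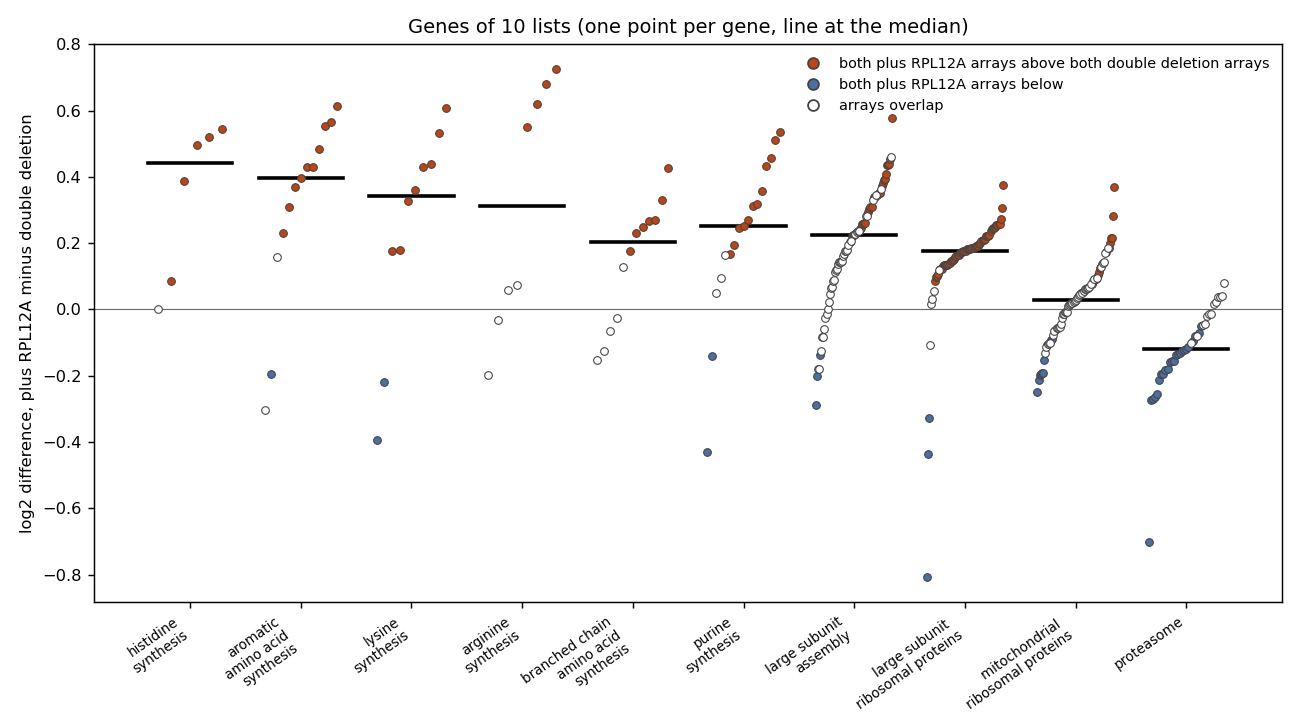
Log2 difference of plus RPL12A minus double deletion (vertical axis) of each gene, 1 point per gene in rank order within its list, with a line at the list median. Red points have both plus RPL12A arrays above both double deletion arrays, blue points both below, and open points overlap; the histidine, aromatic, lysine, arginine and branched chain lists have medians from 0.20 to 0.44 and the proteasome one of -0.12.

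Nucleotide synthesis lay on the same side as amino acid synthesis. Of 17 purine genes 12 were higher and 2 lower by array, with a median of 0.25 against 0.05 for their deciles and 0.25 after quantile normalization. ADE13, adenylosuccinate lyase, had a signal of 2859 and 3082 with plus RPL12A and of 1933 and 2422 in the double deletion. ADE12, adenylosuccinate synthase, had a signal of 3586 and 4180 with plus RPL12A and of 2639 and 3123 in the double deletion. Their arrays did not overlap, and the differences of 0.46 ± 0.14 and 0.43 ± 0.13 did not pass the test. Of 15 pyrimidine genes 8 were higher and 0 lower by array, with a median of 0.20. URA7, CTP synthase, differed by 0.51 ± 0.14. FUR1, uracil phosphoribosyltransferase, had a signal of 2281 and 2268 with plus RPL12A, of 1670 and 1710 in the double deletion and of 4469 and 4485 in the wild type. FUR1 differed from the double deletion by 0.43 ± 0.09 (adjusted p = 0.197) and lay below the wild type at -0.98 (adjusted p = 0.00442).

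In carbon metabolism 18 of 24 genes of glycolysis and fermentation were higher and 1 lower by array, with a median of 0.26 against 0.17 for their deciles, and 0.08 after quantile normalization. Limma called 0 of them, with 17 higher at an unadjusted p under 0.05. TDH1, a minor glyceraldehyde phosphate dehydrogenase, had a signal of 2588 and 2120 with plus RPL12A and of 1944 and 1564 in the double deletion, a difference of 0.43 ± 0.16. ADH5, an alcohol dehydrogenase, had the largest positive difference of any gene not called and not overlapping, 1.79 ± 0.52 (adjusted p = 0.245). Its signal was 845 and 1664 with plus RPL12A and 218 and 538 in the double deletion, and the 2 arrays within each group were wide apart. PYC2, a pyruvate carboxylase, had a signal of 3225 and 3650 with plus RPL12A and of 2181 and 2369 in the double deletion, a difference of 0.59 ± 0.09 (adjusted p = 0.103). Hexose transport had a median of 0.30 against -0.14, but it was 0.01 on plus RPL12A replicate 1 and 0.37 on replicate 2, and 4 of 18 genes were higher by array. Leaving out replicate 1 of the double deletion gave 0.09, and leaving out its replicate 2 gave 0.51. MIG2, a glucose-responsive repressor in this list, differed by 0.53 ± 0.21. The 41 genes of the respiratory chain and ATP synthase had a median of 0.14, near the 0.17 of their deciles, with 0.07 on plus RPL12A replicate 1 and 0.26 on replicate 2 and with ATP3 at 0.37 ± 0.08, and the 26 of the citric acid and glyoxylate cycle one of 0.04, which was 0.18 with double deletion replicate 1 left out and -0.08 with its replicate 2 left out.

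The general stress list and the trehalose and glycogen list had opposite signs in the 2 plus RPL12A cultures. The 41 general stress genes had a median of 0.10, made up of -0.22 on plus RPL12A replicate 1 and 0.29 on replicate 2, with 7 higher and 2 lower by array. Leaving out replicate 1 of the double deletion gave 0.31, and leaving out its replicate 2 gave -0.07. Their medians were 0.86 for plus RPL12A minus wild type and 0.69 for double deletion minus wild type, which share the wild type arrays. Trehalose and glycogen genes had a median of -0.07, with -0.39 on plus RPL12A replicate 1 and 0.22 on replicate 2, and 0.11 without double deletion replicate 1. PIG1, a putative subunit of the phosphatase that acts on glycogen synthase, had a signal of 108 and 83.7 with plus RPL12A and of 161 and 131 in the double deletion, a difference of -0.61 ± 0.21. Of 41 chaperone genes 17 were higher and 5 lower by array, with a median of 0.07 (0.01 without plus RPL12A replicate 1 and 0.04 without double deletion replicate 2). SSA4, a stress-induced Hsp70, had a signal of 334 and 223 with plus RPL12A and of 537 and 372 in the double deletion. HSF1, the heat shock transcription factor, had a signal of 493 and 499 with plus RPL12A and of 704 and 662 in the double deletion. Both had no overlap between groups, and the differences of -0.71 ± 0.24 for SSA4 and -0.46 ± 0.11 for HSF1 did not pass the test.

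Protein turnover genes lay on the lower side, those of autophagy about as often by array as other genes of their signal. Of 37 proteasome genes 24 had both plus RPL12A arrays below the double deletion and 0 both above, with a median of -0.12 where their deciles had 0.05. The proteasome median was 0.00 after centring on the median gene signal, -0.20 after quantile normalization and -0.27 after hybridisation control centring. ECM29, which tethers the proteasome core to its regulatory particle, had a signal of 549 and 406 with plus RPL12A and of 838 and 702 in the double deletion, a difference of -0.70 ± 0.18 (adjusted p = 0.238). Of 31 autophagy genes 16 were lower and 0 higher by array, with a median of -0.30 against -0.21 for their deciles and of -0.15 without double deletion replicate 1. ATG9, a membrane protein of the autophagosome, had a signal of 137 and 126 with plus RPL12A and of 221 and 171 in the double deletion, a difference of -0.56 ± 0.19. The 17 cyclin genes had a median of -0.31 against -0.12 for their deciles, with 5 lower and 0 higher by array. That median was made up of -0.04 on plus RPL12A replicate 1 and -0.53 on replicate 2. The 5 AAD aryl alcohol dehydrogenase genes had the lowest median, -0.54 against -0.21 for their deciles, with 3 lower by array, and AAD14 at -0.54 ± 0.15. Their median was -0.25 without plus RPL12A replicate 2 and -0.31 without double deletion replicate 1. The 13 subtelomeric seripauperin genes had a median of -0.31 against -0.15, with 7 lower and 0 higher by array.

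In the pheromone pathway and the genes of haploid cells 10 of 19 were lower by array and 1 higher, with a median of -0.21 against -0.17 for their deciles and -0.02 after quantile normalization, and of -0.11 without double deletion replicate 1. SST2, which switches off the pheromone signal, had a signal of 128 and 121 with plus RPL12A, of 259 and 233 in the double deletion and of 203 and 182 in the wild type. Both plus RPL12A arrays were the lowest of the 3 groups, but the difference of -0.98 ± 0.17 from the double deletion did not pass the test (adjusted p = 0.129). HO, whose product cuts DNA to switch mating type, had a signal of 316 and 169 with plus RPL12A, of 91.9 and 72.9 in the double deletion and of 816 and 566 in the wild type. HO was higher than the double deletion on both arrays, by 1.50 ± 0.46 (adjusted p = 0.245).

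The other large differences that missed the threshold were of several kinds. INO1, inositol phosphate synthase, had a signal of 493 and 704 with plus RPL12A, of 238 and 156 in the double deletion and of 883 and 1061 in the wild type, a difference of 1.61 ± 0.25 (adjusted p = 0.103). ZRT1, the high affinity zinc transporter, had a signal of 556 and 1290 with plus RPL12A, of 363 and 437 in the double deletion and of 2844 and 1890 in the wild type, a difference of 1.09 ± 0.43 (adjusted p = 0.301). For both genes the plus RPL12A arrays lay between the other groups. SFC1, a mitochondrial succinate-fumarate carrier, differed by 1.61 ± 0.44, RTC2, a vacuolar amino acid transporter, by 1.31 ± 0.45, and BNA2, the first enzyme from tryptophan to NAD, by 1.06 ± 0.24. DSF1, a mannitol dehydrogenase, differed by 1.16 ± 0.26, and SIP18 and GRE1, which are induced by osmotic stress and drying, by 1.10 ± 0.35 and 1.06 ± 0.45.

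On the lower side the largest difference was at YAR009C, a gene of a Ty transposable element whose probe set is shared with near-identical copies, so the copy measured is uncertain. Its signal was 510 and 245 with plus RPL12A, 1633 and 1170 in the double deletion and 589 and 418 in the wild type, a difference of -1.97 ± 0.43 from the double deletion (adjusted p = 0.208). TEN1, a protein of the telomere cap, had a signal of 233 and 176 with plus RPL12A, of 437 and 449 in the double deletion and of 177 and 160 in the wild type, a difference of -1.13 ± 0.19 (adjusted p = 0.129). In both genes the plus RPL12A arrays lay below the double deletion and about at the wild type. The meiotic genes MND1 and NDJ1 differed by -1.08 ± 0.34 and -1.01 ± 0.29, and GAS2, a glucan transferase of the spore wall, by -1.07 ± 0.38. The open reading frames YHR022C, YOL163W, YGL258W-A, YBR182C-A and YOL162W lay between -1.23 for YHR022C and -0.99 for YOL162W.

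Set against the wild type, plus RPL12A cells had 121 genes higher (2.22%) and 95 lower (1.75%). These counts moved strongly with the arrays used, to 12 higher without either wild type array or either plus RPL12A array, and to between 0 and 3 lower. They also moved to 18 higher and 4 lower without the 3 arrays of low 25S signal, and without either double deletion array to 34 higher and 18 lower. The double deletion set against the same wild type arrays had 1109 higher (20.4%) and 661 lower (12.2%). NCA3, a member of the SUN family tied to mitochondrial ATP synthase, had a signal of 696 and 408 with plus RPL12A, of 1061 and 936 in the double deletion and of 74.3 and 73.7 in the wild type. It stood 2.85 above the wild type on the log2 scale (adjusted p = 0.00325) and its difference from the double deletion was -0.90 ± 0.24 (adjusted p = 0.238). PET18 had a signal of 580 and 401 with plus RPL12A, of 908 and 748 in the double deletion and of 138 and 124 in the wild type, with a difference of 1.88 from the wild type (adjusted p = 0.0172). In both genes the plus RPL12A arrays lay between the other groups. THI22, of the thiamine list, had the same order, with a signal of 419 and 316 with plus RPL12A, of 632 and 581 in the double deletion and of 229 and 224 in the wild type.

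Genes used as selection markers in yeast remained high with the plasmid. LEU2 had a signal of 1810 and 2158 with plus RPL12A, of 2463 and 2417 in the double deletion and of 513 and 393 in the wild type. URA3 had a signal of 6636 and 6895 with plus RPL12A, of 5477 and 5878 in the double deletion and of 1993 and 2499 in the wild type. HIS3 had a signal of 860 and 704 with plus RPL12A, of 904 and 1558 in the double deletion and of 293 and 344 in the wild type. In all 3 genes both plus RPL12A arrays were far above the wild type, by 2.14 for LEU2 (adjusted p = 0.00325), 1.60 for URA3 (adjusted p = 0.00238) and 1.29 for HIS3 (adjusted p = 0.0423). Against the double deletion they differed by -0.30 ± 0.18, 0.25 ± 0.11 and -0.61 ± 0.25, and none passed the test. Which of these markers the deletions or the plasmid carry is not stated in the labels.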

How the data were processed

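For each probe set the authors deposited 1 linear intensity per array, which the submitters' processing notes credit to MAS5 with no version given here. Titles call both arrays of a group biological replicates, and per the labels' protocols biotinylated cRNA came from 10 ug of total RNA. The 2% trimmed mean of the deposited intensities is near 499.8 on every array. Raw array files were not used here.

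Of 10928 probe sets, 7244 have 1 gene symbol in the platform annotation and 5498 of those are for S. cerevisiae, standing for 5449 genes. For 47 genes with several probe sets the one of highest mean log2 signal was used, and 12 symbols were brought up to date. Background was the 95th percentile of the 1746 S. pombe probe sets, and the 5439 genes above it on at least 2 arrays were tested.

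A mean per group was fitted to log2 intensities of all 8 arrays with limma 3.58.1 in R 4.3.3 (lmFit and eBayes, variance trend on intensity), leaving 4 residual degrees of freedom beside 3.23 prior ones. Tests were 2-sided, adjusted by Benjamini-Hochberg over 5439 genes, with a threshold of 0.05. When tested on simulated data made for this comparison, the fit found 28% of 50 genes given a log2 change of 0.5. It found 88% of those given 1, 100% of those given 2 and 98% of those given 4, and made 8 false calls. The simulated noise was independent between arrays, with no replicate effect and no trend of the differences with signal. More genes were changed there than were called here, which eases the adjusted threshold. These shares therefore do not carry over to the data, and genes not called cannot be taken as unchanged.

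Genes named are RPL12A and RPL12B, all called genes, the 10 largest differences each way among genes not called whose arrays do not overlap and exceed background, up to 4 members of each of 60 lists, and any member of short lists. The comparison, lists and naming rule were chosen with earlier results of these data known. Tables were made with Python 3.11.15 and pandas 2.3.3, figures with matplotlib 3.10.9. No sequences or genome positions are given.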

Additional observations from a re-analysis of the deposited data

Results flagged for a closer look

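RPL12A differed between the 2 plasmid strains when plus RPL12A was set directly against plus RPL12B. Its signal was 6079 and 5732 with plus RPL12A and 8.18 and 15.6 with plus RPL12B, a log2 difference of 9.03 that passed limma's test. The strains differ by design in this gene and in RPL12B, which was not called.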

How the results depend on the processing

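The 12 rises were 14 with arrays centred on their median gene signal, 10 if quantile normalized and 7 if centred on hybridisation controls. The same count was 5 with no intensity trend, 5 with only the 4 arrays compared, 6 at a threshold of 0.01 and between 4 and 10 with each array left out in turn. Of the 12 genes, 6 were called under all 4 scalings, among them PHO84, SUL1, QDR2, SNO1 and SNZ1. Alternatives chosen after seeing the data were the fit without the 3 arrays of low 25S signal, which gave 5 rises, and combinations of the replicate block with other settings. No genes were called lower by limma under the deposited scale (466 at an unadjusted p under 0.05), and the count was 0 with each array left out in turn. No label says that the replicate numbers, of which there are only 2, mark cultures grown or processed together. The differences of replicate 2 minus replicate 1 correlated at 0.286 between plus RPL12A and the double deletion, at 0.795 between both plasmid strains, and at 0.0498 to 0.414 in the other 4 pairs of groups, so shared replicate effects are a hint from the data and not part of the design. A replicate block gave 68 genes higher and 11 lower, and the 12 genes were among the 68. Genes described as not called that the block called were, among others, INO1, ADH5, HO, PCL5, RPP0, HIS4 and ARO2 higher and YAR009C, TEN1, GAS2 and SST2 lower. With the block and only the 4 arrays 1 gene was called lower. With the block and median centring 411 were higher and 32 lower, with the block and quantile normalization 3 were lower, and with the block and hybridisation control centring 5 were lower. Some of these fits also used fewer arrays, and the cause of the shifts was not tested. Among 102 of the genes named, 3 not called turned sign: with arrays left out in turn PHO11 lay between -0.0496 (without double deletion replicate 2) and 0.48, PHO5 between -0.0857 (without that array) and 0.46, and RMT2 between -0.0848 (without double deletion replicate 1) and 0.48. Over those 102 genes and all settings, 2463 values kept direction and side of the threshold, 99 crossed to a call and 87 lost one. The spread of 2 cultures, and signals near background in the double deletion, limit all of these values.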
